A study of Apostichopus japonicus with 9 samples.

Results

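The miR-71 family was represented by 3 of the 475 miRNA entries in the small RNA libraries of the sea cucumber respiratory tree. They were all entries whose name carries the family number 71, namely Aja-miR-71-5p and a pair of entries both named Aja-miR-71, which were told apart by their lengths of 19 nt and 21 nt. All 3 met the condition for testing, which was a value in every library of 1 group or more, as did 90 entries in all. The libraries came from *Apostichopus japonicus* kept for 3 days under severe hypoxia (dissolved oxygen 2 mg/L, DO2), mild hypoxia (4 mg/L, DO4) or normoxic conditions (8 mg/L, DO8). Oxygen was lowered with nitrogen in the DO2 and DO4 tanks, all animals came from one coastal collection and were divided among the groups at random, and their strain, age and sex are not given in the sources used here. Each group had 3 libraries, and each library was made from pooled RNA of 3 animals, as the study's methods describe it, so the spread between libraries is a spread between pools. The sample labels name an individual respiratory tree instead, and were that so, the spread would be one between animals. Separate tanks within a group are not described, so the p values set a difference only against how much pools of 1 group varied.

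miRNAs are short RNAs that guide Argonaute proteins to messenger RNAs, mainly through pairing of the seed, bases 2 to 8 counted from the 5′ end, and thereby lower the stability or translation of those messages. miR-71 is an old family of bilaterian animals that is found in nematodes, molluscs, annelids, echinoderms and other invertebrates but not in vertebrates. In *Caenorhabditis elegans* it is needed for normal lifespan and contributes to resistance to heat and oxidative stress. Its role in sea cucumbers was not addressed by these libraries.

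The sequences show how the 3 entries are related, and they are given as in the deposited files, 5′ to 3′, with T for U. Capitals mark the seed and, in the 21 nt Aja-miR-71, also the base at which it differs.

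Aja-miR-71-5p: tGAAAGACatgggtagtgaga

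Aja-miR-71 of 19 nt: tGAAAGACatgggtagtga

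Aja-miR-71 of 21 nt: tGAAAGACatgTgtagtgaga

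The 19 nt entry was Aja-miR-71-5p without its last 2 bases at the 3′ end. The 21 nt Aja-miR-71 had the length of Aja-miR-71-5p and differed from it by G12T, with the base of Aja-miR-71-5p given first and positions counted from 1 at the 5′ end. All 3 entries thus had the same seed, GAAAGAC, and of the 475 entries only these 3 held these letters at bases 2 to 8 or anywhere else on the strand listed. Among the other 472 entries, the nearest in the first 16 bases still differed at 6 of them. No entry was named as the 3p arm of miR-71.

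The values are normalized expression as deposited, that is, the read number of each miRNA, which was not always whole, times a factor of its library. The reads behind them, worked out from the steps in which the values rise, numbered 335658 to 1740914 for the DO2 libraries, 4795819 to 6024869 for DO4, and 4681523 to 5720697 for DO8. A single read was therefore worth 1.22 to 6.18 in the DO2 libraries, against 0.633 to 0.682 in those of DO4 and 0.556 to 0.598 in those of DO8, and low values were less well bounded in DO2. For the labelled tissue no defining miRNA was available. Entries of muscle miRNAs (miR-1 and miR-133) had sums of 77416 to 129224 for DO2, 73264 to 95945 for DO4, and 54757 to 69823 for DO8. Those of the nervous system (miR-124, miR-9 and miR-137) had sums of 1749 to 2851 for DO2, 1382 to 2159 for DO4, and 1612 to 2067 for DO8. Those of miR-200, an epithelial miRNA, had sums of 33363 to 39415 for DO2, 55876 to 122788 for DO4, and 79028 to 121801 for DO8, while 6 entries of vertebrate blood and liver miRNAs reached at most 99.2 in a DO2 library, 194 in DO4 and 12.2 in DO8. The miR-200 sums of DO2 lay below all others. Of single tested entries, 22.2% had every DO2 value below every DO8 value, and 11.1% below every DO4 value. The muscle sums of DO2 lay above all of DO8, and were mostly Aja-miR-1a-3p, which averaged 101709 in DO2 and 55209 in DO8. Muscle entries did not all go this way. Aja-miR-133-3p averaged 5302 in DO2, 8406 in DO4 and 7380 in DO8, while the shorter Aja-miR-133 averaged 101 in DO2 and 28.7 in DO8. The part of muscle or epithelium in the results below was not tested.

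Aja-miR-71-5p was among the most abundant miRNAs of the respiratory tree. Its deposited value was lower in every DO2 library than in any other library. It stood at 43486, 63098 and 69684 in the DO2 libraries, at 181244, 162651 and 96699.6 in DO4 and at 118225, 101207 and 126039 in DO8. The DO2 range did not overlap that of DO4 or DO8, while DO4 enclosed all of DO8. Over all libraries it ranked 5th of the 475 entries, below Aja-miR-92a and above Aja-miR-1a-3p, and it held 3.70% of all values. Its rank within a library was 7 or 8 in DO2, and 5 or 6 in DO4 and DO8. Aja-miR-1a-3p, the muscle miRNA next below it over all libraries, was from 0.41 to 2.81 times as abundant.

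In the pairwise comparisons on the deposited scale, Aja-miR-71-5p fell in severe hypoxia against both other conditions. The DO2 libraries averaged 58756 ± 13628, those of DO4 146865 ± 44428 and those of DO8 115157 ± 12697 (SD, n = 3 each). With limma on log2(value + 1) over all 90 entries, it fell by 0.99 on the log2 scale in DO2 against DO8, which is 0.502 of the DO8 level (standard error 0.28, 95% interval -1.62 to -0.37, adjusted p = 0.0221). Against DO4 it fell by 1.30, or to 0.406 of the DO4 level (standard error 0.28, 95% interval -1.93 to -0.67, adjusted p = 0.00509). Between DO4 and DO8 no change passed (log2 change 0.31, standard error 0.28, 95% interval -0.32 to 0.93, adjusted p = 0.802), and 0% of all entries did; 1 entry had an unadjusted p under 0.05. Aja-miR-71-5p was the only one of the 3 members to pass in each comparison with DO2. Of all tested entries, 7.78% were called lower in DO2 against DO8 and 6.67% in DO2 against DO4, while 23.3% and 24.4% were called higher, which makes 31.1% in either direction for each comparison. Against DO8, every value of DO2 was below every value of DO8 for 22.2% of the entries, and against DO4 for 11.1%. The DO2 libraries were also those with the fewest miRNA reads, as given above, and Aja-miR-6240-5p averaged 17635 in DO2, against 93.1 in DO4 and 72.5 in DO8; the part of depth or RNA quality in the fall of Aja-miR-71-5p was not tested. The sum of all deposited values of a library was also lower in DO2. It was 2029410 to 2118830 there, against 3269840 to 3984840 in DO4 and 2718920 to 3420130 in DO8. With each library given the same total, neither fall passed (log2 change -0.44 against DO8, adjusted p = 0.248, and -0.53 against DO4, adjusted p = 0.159, both from limma). The comparisons with DO2 share the DO2 libraries and are not independent of each other. In bulk tissue, fewer cells that express a miRNA and less of it per cell cannot be told apart.

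The call against DO8 was close to the threshold and depended on single libraries. It was not reached without DO2_1 (log2 change -0.79, adjusted p = 0.0616), DO2_2 (-1.06, 0.0524), DO8_1 (-0.97, 0.0756) or DO8_3 (-0.93, 0.0794), all by limma with fewer samples in the fit. Against DO4 it was reached without any one library, with adjusted p from limma between 0.00175 and 0.0216.

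**Figure D1:**
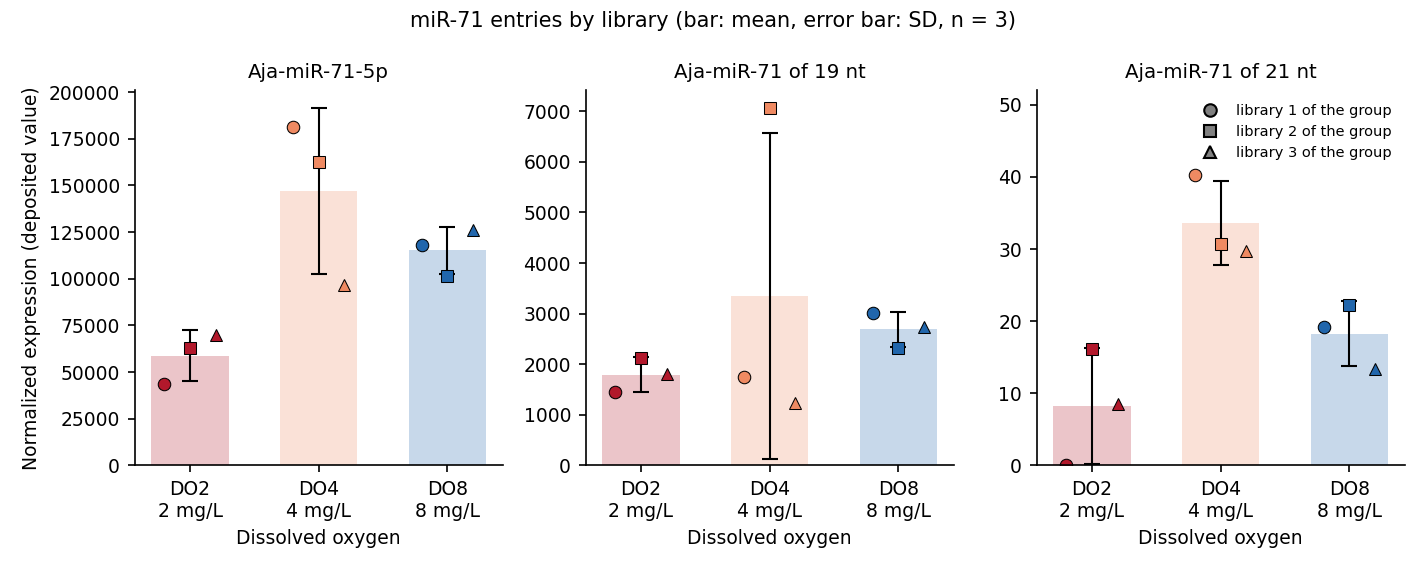
Normalized expression (deposited value, linear axis from 0) of the 3 miR-71 entries in the 9 libraries, by dissolved oxygen; symbols are single libraries, bars are group means and error bars are SD (n = 3). The 3 DO2 libraries lie at or below 69684 for Aja-miR-71-5p, below all other libraries, and for the 19 nt entry DO4_2 stands alone at 7059.

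The 19 nt Aja-miR-71 was lower in DO2 than in DO8 without passing the test, and DO4 was uneven. Over all libraries it ranked 24th and held 0.0902% of all values. Its values were 1441, 2130.1 and 1805 in the DO2 libraries, 1755, 7059 and 1224 in those of DO4 and 3005, 2319 and 2739 in those of DO8. Every DO2 library was below every DO8 library, as for 22.2% of tested entries. DO4 held both the highest and the lowest value of all 9 libraries. The DO2 libraries averaged 1792 ± 345, those of DO4 3346 ± 3226 and those of DO8 2688 ± 346 (SD, n = 3 each), so the SD was 19.2% of the mean for DO2, 96.4% for DO4 and 12.9% for DO8. The log2 change was -0.59 for DO2 against DO8 (95% interval -1.82 to 0.63, adjusted p = 0.431 from limma), -0.48 for DO2 against DO4 (-1.71 to 0.74, adjusted p = 0.476) and -0.11 for DO4 against DO8 (-1.33 to 1.11, adjusted p = 0.969). Both intervals of DO2 include the change of Aja-miR-71-5p in the same comparison. Without DO4_2 the change against DO8 was again -0.59, with a standard error of 0.24 in place of 0.55 and an adjusted p of 0.097 (limma).

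The 21 nt Aja-miR-71 ranked 73rd and rested on few reads. Its values were 0, 16.1 and 8.52 in the DO2 libraries, 40.3, 30.7 and 29.8 in those of DO4 and 19.1, 22.2 and 13.4 in those of DO8, which correspond to 0, 5 and 7 reads for DO2, 61, 45 and 47 for DO4, and 32, 40 and 23 for DO8. All DO4 libraries were above all DO8 libraries, as for 5.56% of tested entries. They were also above all DO2 libraries, as for 11.1% of tested entries, while DO2 overlapped DO8. The DO2 libraries averaged 8.22 ± 8.07, those of DO4 33.6 ± 5.87 and those of DO8 18.2 ± 4.51 (SD, n = 3 each). By limma the log2 change was -1.79 for DO2 against DO8 (95% interval -3.89 to 0.32, adjusted p = 0.181), -2.65 for DO2 against DO4 (-4.75 to -0.55, adjusted p = 0.0565) and 0.86 for DO4 against DO8 (-1.24 to 2.97, adjusted p = 0.802). The change against DO8 was -0.56 without DO2_1, -4.00 with a pseudocount of 0.01 and -0.73 with a pseudocount of 10 (adjusted p = 0.395, 0.255 and 0.202). None passed as first given, and the change against DO4 lay next to the threshold, with adjusted p from 0.000632 to 0.159 over its alternatives. Without DO2_1, where it was listed at 0, that change was -1.42 (adjusted p = 0.0473), and without DO2_2 it was -3.47 (adjusted p = 0.027). A count of 0 in DO2_1 allows a value of up to 18.6, the worth of 3 reads there, which is above the lowest DO8 value of 13.4 and just under the next, 19.1.

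Ratios between the forms are free of the scaling factor of a library, since both values come from the same library. The 19 nt entry stood at 3.31, 3.38 and 2.59 per 100 of Aja-miR-71-5p in DO2, at 0.968, 4.34 and 1.27 in DO4 and at 2.54, 2.29 and 2.17 in DO8. All DO2 libraries were above all DO8 libraries, DO2_3 and DO8_1 nearly touching, and the DO4 libraries fell on both sides of the rest. The DO2 libraries averaged 3.09 ± 0.437 per 100, those of DO4 2.19 ± 1.87 and those of DO8 2.34 ± 0.188 (SD, n = 3 each). The difference was 0.758 per 100 for DO2 against DO8 (p = 0.1 in a two-sided exact permutation test, which can go no lower with 3 libraries against 3) and 0.902 for DO2 against DO4 (p = 0.4, exact). For DO4 against DO8 it was -0.144 (p = 1, exact), and for DO2 against the 6 other libraries 0.830 (p = 0.262, exact, where 0.0238 is the smallest possible). Over the 12 tests of forms and shares the smallest adjusted p was 0.45. Without DO4_2, the only library above those of DO2, the difference between DO2 and the other 5 was 1.25 per 100. Leaving it out removes the overlap by construction, so its p of 0.0357 in the exact permutation test, the smallest possible, lends no support. Without any other single library the exact permutation p was 0.286 to 0.429. The difference between DO2 and DO4 was 0.290 per 100 without DO4_1, 1.98 without DO4_2 and 0.439 without DO4_3.

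The 19 nt entry had 233, 660 and 1483 reads in the DO2 libraries, 2653, 10353 and 1934 in those of DO4 and 5027, 4171 and 4716 in those of DO8, so that counting error was small beside the differences between libraries of DO4. As a share of its reads and those of Aja-miR-71-5p, it made up 4.16% in DO4_2 (95% exact binomial interval 4.08% to 4.24%) and 0.959% in DO4_1 (0.923% to 0.996%). In the shallowest library, DO2_1, the interval was 2.81% to 3.64%. Intervals of this kind cover counting error only, since reads after PCR are not independent molecules. The reads of the 19 nt and 21 nt entries came out whole, within 0.02 of a read, in all 9 libraries, whereas those of Aja-miR-71-5p did so in 1 of 9. The worth of 1 read was fitted on lower values. For Aja-miR-71-5p, with 7031 to 274031 reads, so small a departure may not be resolved, and the contrast was not tested.

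The 21 nt Aja-miR-71 kept to a few reads for every 10000 of Aja-miR-71-5p wherever it was listed. The ratio was 0, 2.56 and 1.22 per 10000 for DO2, 2.23, 1.89 and 3.08 for DO4, and 1.62, 2.2 and 1.06 for DO8. The groups overlapped, and none of the differences passed (exact permutation tests, two-sided: DO2 against DO8 had p = 0.7, DO2 against DO4 had p = 0.3, DO4 against DO8 had p = 0.2 and DO2 against the other 6 had p = 0.286). In DO2_1 only 7031 reads of Aja-miR-71-5p were present, so a count of 0 allows up to 4.27 per 10000, more than in any of the other 8 libraries. At the pooled ratio of those 8, which was 1.94 per 10000, DO2_1 would have held 1.37 reads. Its absence from DO2_1 was therefore not distinguishable at this depth from the level seen elsewhere.

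**Figure D2:**
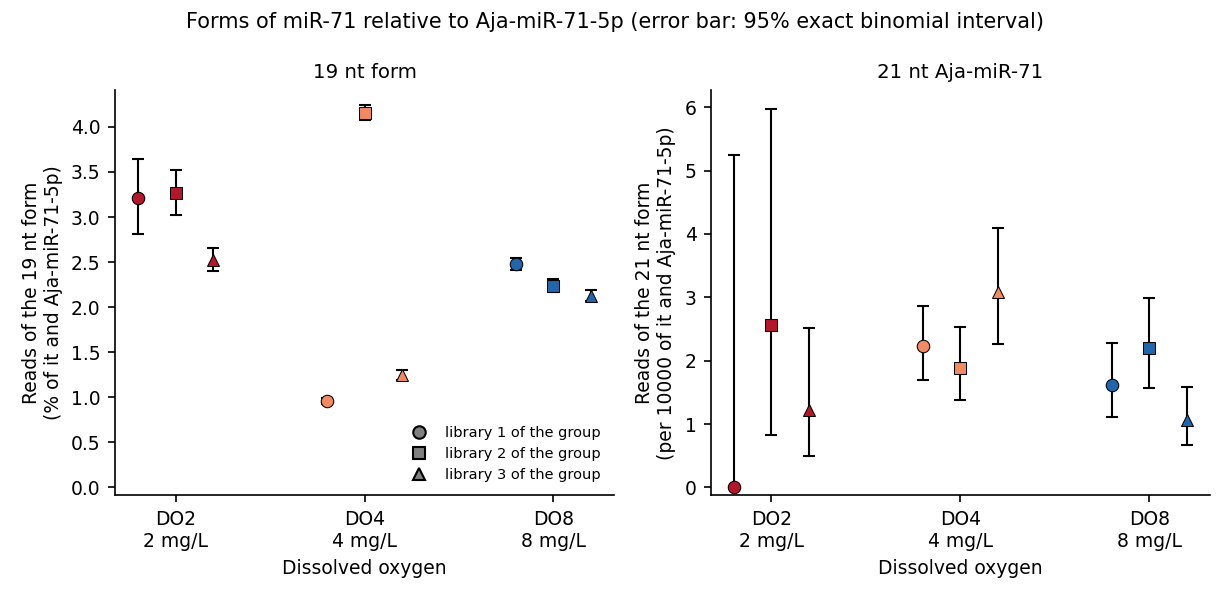
Reads of the 19 nt form as a percentage of it and Aja-miR-71-5p (left) and reads of the 21 nt form per 10000 of it and Aja-miR-71-5p (right) in each library, by dissolved oxygen; error bars are 95% exact binomial intervals, which cover counting error only. On the left DO4_2 lies at 4.16% and the other DO4 libraries at 0.959% and 1.25%; on the right the interval of DO2_1 reaches from 0 to 5.25.

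The ratio of the 19 nt form was set beside other miRNAs that were listed in a shorter and a longer form. In 9 nested pairs, the shorter sequence was a run of the longer and both were listed in all 9 libraries. In 66.7% of these pairs, that of miR-71 included, every DO2 library had more of the shorter form per 100 of the longer than every DO8 library, and in 44.4%, without miR-71, than every DO4 library. The non-overlap of DO2 and DO8 in the miR-71 ratio was thus shared by 5 of the 8 other pairs. For miR-71 the mean log2 ratio was higher by 0.40 in DO2 against DO8 and by 0.82 in DO2 against DO4. The pairs of Aja-miR-1, a muscle miRNA, Aja-miR-125-5p, of the lin-4 family, Aja-miR-200 and Aja-miR-133, also of muscle, were higher by 2.12 to 2.50 against DO8 and by 2.50 to 2.89 against DO4. The pair of Aja-miR-6240 lay between these and miR-71, at 0.94 and 1.61, with overlapping groups. Aja-miR-124-3p, of the nervous system, was closest to miR-71 with 0.24 and 0.34, and Aja-miR-252a-5p and Aja-miR-92d-3p had -0.03 and -0.30 against DO8. The difference between miR-71 and the other pairs was not tested.

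**Figure D3:**
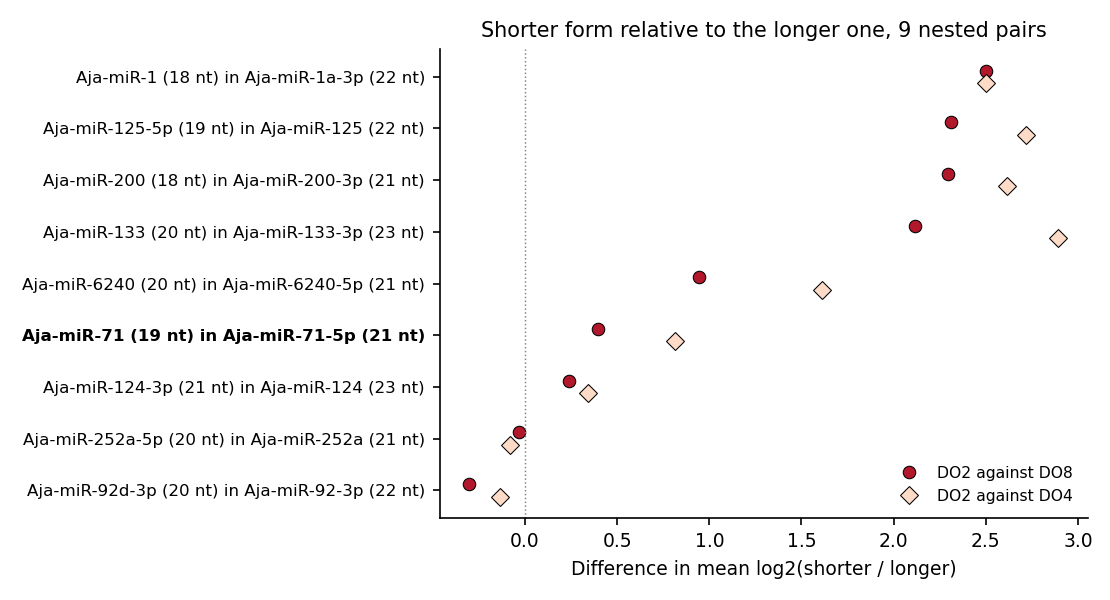
Difference in the mean log2 ratio of the shorter to the longer form for 9 nested pairs of entries (rows), for DO2 against DO8 (circles) and DO2 against DO4 (diamonds), with n = 3 libraries per group; 0 means the same ratio in both groups. The miR-71 pair (bold) lies at 0.40 and 0.82, below the 4 pairs that lie above 2.

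DO4_2 stood apart in its short forms, and not in miR-71 alone. Within DO4 it had the highest ratio of shorter to longer form in 8 of the 9 nested pairs, and the miR-71 pair was the furthest apart, at 3.43 times the higher of the other DO4 libraries. The value of the 19 nt entry itself was 4.02 times the higher of the other DO4 libraries. Of 76 tested entries listed in all DO4 libraries, 5 including this one reached that factor, while the median entry was at 0.818. A factor of at least 2 was reached by 12 entries, of which 11 were 20 nt or shorter, although only 21 of the 76 were that short. Results for the 19 nt form that involve DO4 accordingly change without this library: the log2 change of DO2 against DO4 was then 0.27 (adjusted p = 0.471 from limma) and that of DO4 against DO8 was -0.87 (adjusted p = 0.199).

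The ratio of the 21 nt form was likewise set beside other entries that differ from an abundant entry at a single base. This comparison and the count of entries high in DO4_2 were chosen after the values had been seen. Among known miRNAs of equal length there were 7 such pairs whose more abundant entry was listed in all 9 libraries. Over the libraries, the median of the rarer entry ranged from 0 to 2.53 per 10000 of the more abundant one, and the pair of miR-71, at 1.89, had the second highest median. Aja-let-7a-5p beside Aja-let-7-5p had the highest, and Aja-miR-184 beside Aja-miR-184-3p came next below miR-71 at 1.66. The ratio of the miR-71 pair thus lay within the range of the other 6 pairs, and the difference from them was not tested.

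As a share of all miRNA values, the family took 2.16%, 3.21% and 3.37% in the DO2 libraries, 4.59%, 5.19% and 2.91% in those of DO4 and 3.55%, 3.41% and 4.74% in those of DO8. DO2 lay just below DO8, 3.37% against 3.41% at the nearest, and overlapped DO4 at DO4_3. The DO2 libraries averaged 2.92% ± 0.658, those of DO4 4.23% ± 1.18 and those of DO8 3.90% ± 0.731 (SD, n = 3 each). The difference was -0.979 percentage points for DO2 against DO8 (p = 0.1 in a two-sided exact permutation test, again the smallest possible), -1.31 for DO2 against DO4 (p = 0.3, exact) and 0.334 for DO4 against DO8 (p = 0.9, exact). For DO2 against the other 6 libraries it was -1.15 (p = 0.119, exact). Without DO4_3, the only one of the 6 that overlaps DO2, it was -1.38, and its p of 0.0357 in the exact permutation test follows from removing the overlap. Without any other single library the exact permutation p was 0.143 to 0.357. The difference from DO8 was -0.602 without DO2_1 and -0.559 without DO8_3, and that from DO4 was -0.833 without DO4_2 and -1.97 without DO4_3. Taken entry by entry, every DO2 share was below every DO8 share for 10% of the tested entries, and below every DO4 share for 3.33%. Within the family, Aja-miR-71-5p made up between 95.8% and 99.0% of the values of a library, so that the family total is nearly that of this entry.

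The size of the fall of Aja-miR-71-5p depended on the scaling of the libraries, and the median change of all 90 entries moved with it. On the deposited scale that median was -0.03 for DO2 against DO8 and -0.14 for DO2 against DO4. When each library was given the same miRNA total, the median was 0.51 and 0.62, and Aja-miR-71-5p was then at -0.44 (adjusted p = 0.248 from limma) and -0.53 (adjusted p = 0.159), with neither call kept. With median-ratio factors both calls held, at -1.06 (adjusted p = 0.0226) and -1.44 (adjusted p = 0.00347). With clean reads as library size the medians were -1.52 and -1.46 and Aja-miR-71-5p was at -3.20 (adjusted p = 0.000771) and -3.34 (adjusted p = 0.000632). Relative to the median entry it was at -0.96 against DO8 and -1.16 against DO4 on the deposited scale. With clean reads as library size Aja-miR-71-5p was at -1.68 and -1.89 from the median. A library factor moves every entry alike apart from the pseudocount, so this distance is nearly fixed by construction between the other scales. Its likeness between those is no support for the fall. The 19 nt form was at -0.56 and -0.34 relative to that median on the deposited scale.

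**Figure D4:**
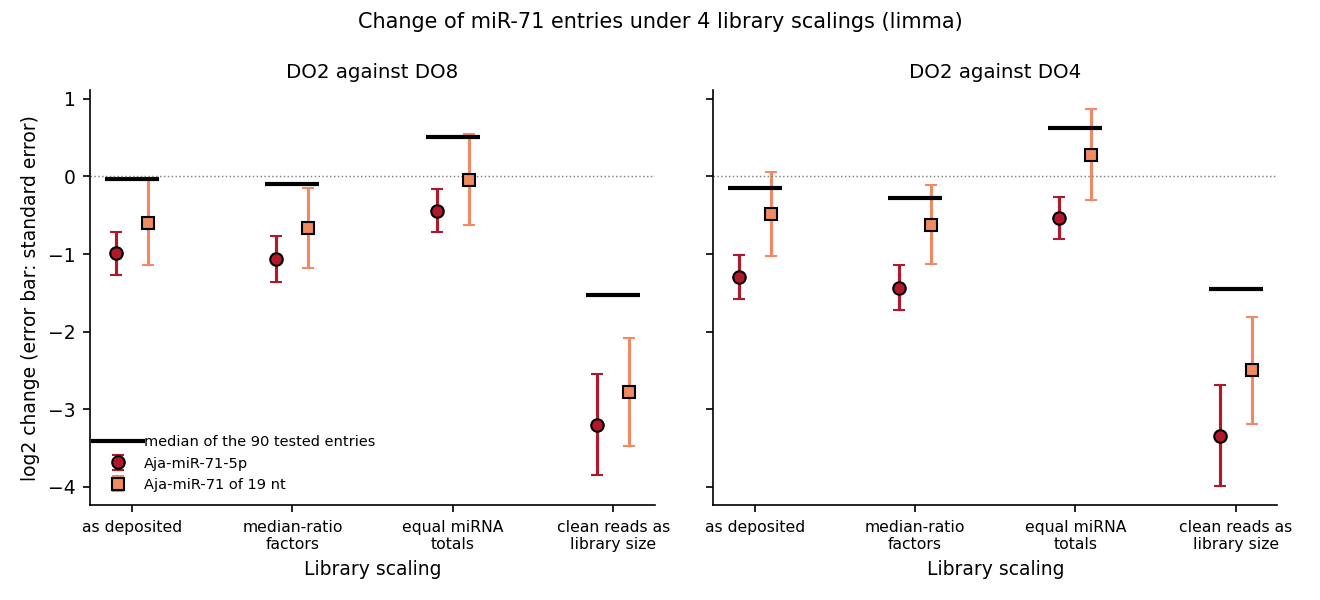
log2 change from limma of Aja-miR-71-5p (circles) and the 19 nt Aja-miR-71 (squares) under 4 library scalings, for DO2 against DO8 (left) and DO2 against DO4 (right), with standard errors (n = 3 libraries per group); black lines are the median of the 90 tested entries. Aja-miR-71-5p lies below that median under each scaling, by 0.95 to 1.89 on the log2 scale.

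The entries whose level ran most nearly parallel to Aja-miR-71-5p were found by the SD of their log2 ratio to it over the 9 libraries, among the 61 other entries listed in all of them. First came Aja-miR-2013-3p, whose family was described in echinoderms and their relatives, with an SD of 0.29 and between 0.772 and 1.38 per 100 of Aja-miR-71-5p. It was followed by Aja-miR-125, of the lin-4 family that controls developmental timing in *C. elegans*, with an SD of 0.38 and between 168 and 417 per 100, and by Aja-miR-2004-3p, with 0.38. The 19 nt form was the 23rd, with an SD of 0.69. Nearest to the 19 nt form were Aja-miR-2010-3p at 0.49, Aja-miR-2004-3p at 0.58 and Aja-miR-34 at 0.58, and Aja-miR-71-5p was the 9th. The points share their libraries and depth, and these orders are a description.

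Of 9 other invertebrate families without a vertebrate member that were looked for, 4 had entries, 5 in all, and 3 of these were tested: Aja-miR-252a, Aja-miR-252a-5p and Aja-miR-278-3p. In DO2 against DO8, 1 of the 3 rose and 0 fell, beside 23.3% and 7.78% of all tested entries, and the median log2 change was -0.22 against -0.03 for all tested entries. In DO2 against DO4 none passed, beside 31.1% of all tested entries, and the median was 0.34 against -0.14. Aja-miR-278-3p, which affects insulin responses in *Drosophila*, had 49.5 to 152 in DO2 and 13.3 to 22.1 in DO8, and its log2 change of 2.24 passed the test (adjusted p = 0.0306 from limma, standard error 0.68). It passed in 10 of 19 alternatives, and did not without DO2_2, DO2_3, DO4_1, DO8_1, DO8_2 or DO8_3 (adjusted p = 0.057 to 0.0984 from limma). Nor did it pass with the replicate block (adjusted p = 0.0594), with a pseudocount of 0.01 (adjusted p = 0.0508) or with clean reads as library size, where the log2 change was 0.22 (adjusted p = 0.748).

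Of the families linked to lifespan in *C. elegans*, those of lin-4 and miR-34 had 3 tested entries. In DO2, 1 of the 3 fell and none rose in each comparison, beside 7.78% lower and 23.3% higher of all tested entries against DO8 and 6.67% and 24.4% against DO4. The list's median log2 change was -0.93 against DO8, where that of all entries was -0.03, and -0.13 against DO4, where that of all entries was -0.14. Aja-miR-125 fell by 1.17 against DO8 (adjusted p = 0.0038 from limma) and fell by 1.43 against DO4 (adjusted p = 0.000985). Its 19 nt form, Aja-miR-125-5p, had log2 changes of the other sign, 1.13 against DO8 (adjusted p = 0.133 from limma) and 1.28 against DO4 (adjusted p = 0.106), and did not pass. Aja-miR-34, with 94.9 to 216 for DO2, 65.1 to 350 for DO4 and at most 272 for DO8, passed in neither comparison (adjusted p = 0.266 and 0.856 from limma). The miR-2 family, whose genes lie beside that of miR-71 in many protostomes, had a single entry, Aja-miR-13-3p, listed in 1 library and not tested.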

How the data were processed

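Small RNA libraries of 9 pooled samples were sequenced by the authors on an Illumina HiSeq2500. Per the study's methods, reads were trimmed, other small RNAs were removed, and the rest was aligned with up to 2 mismatches to animal miRNAs of miRBase 21.0; no genome build is given in the sources used here. The processing notes name CASAVA 1.5. The sample labels describe an mRNA protocol from an individual tree, which was set aside because the files hold miRNAs. What the authors deposited is a signal: the reads of each miRNA, in part with fractions of a read, times a factor of its library. How reads that match several forms within those mismatches were divided is not given in the sources used here. The column totals, 2029410 or more, exceed what the stated reads-per-million formula allows, so the factor is not known.

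Files were joined by name and sequence. The value of 1 read was taken from predicted miRNAs listed in 1 library only, whose names end in their read number (5 libraries), and otherwise as the largest step of which at least 60% of the lowest values are multiples (4 libraries). At the resulting worth, 69.1% to 86.0% of values were whole reads within 0.02 and the rest held fractions of a read, so count tests were not used. The fit of log2(value + 1) used limma 3.58.1 under R 4.3.3 (all 9 libraries, 1 mean per group, trend), with Benjamini-Hochberg adjustment of p over 90 entries, with calls at an adjusted p under 0.05. The pipeline was tested on simulated data with changes larger than those found for Aja-miR-71-5p, so that test does not bear on changes of this size. For ratios and shares, exact permutation tests (two-sided) were run with scipy 1.17.1 and Python 3.11.15.

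The named entries are the 3 members, entries with their seed, the 3 entries with the smallest SD of the log2 ratio to each of the abundant members, the neighbours of Aja-miR-71-5p in abundance, and listed families. Members and lists were chosen with earlier results of these data known. Alternatives were other pseudocounts (0.01 or 10), no filter or a mean of at least 10, only the 2 groups compared, a replicate block, equal miRNA totals, median-ratio factors, clean reads given by the study as library size, no trend, and leaving out each library. With a library left out, the condition for testing was applied to the libraries left, so the number tested could differ from 90.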

Additional observations from a re-analysis of the deposited data

How the results depend on the processing

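Aja-miR-71-5p stayed lower in DO2 under all 19 alternatives of each comparison, with log2 changes from -3.20 to -0.44 against DO8 (13 passed) and from -3.34 to -0.53 against DO4 (18 passed). The changes that did not pass were those scaled to equal miRNA totals (-0.44 and -0.53), the fit without a trend against DO8 (-0.99, adjusted p = 0.0553 from limma) and 4 that left out a library against DO8 (-1.13 to -0.79 over all libraries). The 19 nt form passed with clean reads as library size (-2.78 against DO8 and -2.50 against DO4), and had the other sign against DO4 with equal totals (0.28); leaving out libraries gave -0.99 to 0.27 for DO2 against DO4 and -0.87 to 0.40 for DO4 against DO8. The 21 nt form passed against DO8 with clean reads (-1.50; -2.61 to -0.56 over left-out libraries, none passing), and against DO4 with a pseudocount of 10 (-1.36), no filter (-2.65), median-ratio factors (-2.76), clean reads (-2.06) and without DO2_1 or DO2_2 (-3.47 to -1.42 over all libraries). The cause was not tested.

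Leaving out libraries, the 19 nt form per 100 of Aja-miR-71-5p differed by 0.571 to 1.25 for DO2 against the other 6, by 0.290 to 1.98 for DO2 against DO4 and by -1.22 to 0.468 for DO4 against DO8. The 21 nt form per 100 differed by -0.0101 to 0.00265 for DO2 against DO8. The family share differed by -1.38 to -0.769 percentage points for DO2 against the other 6, by -1.22 to -0.559 for DO2 against DO8, by -1.97 to -0.833 for DO2 against DO4 and by -0.146 to 0.995 for DO4 against DO8. Taken without Aja-miR-10, the share differed by -3.09 for DO2 against the other 6 (p = 0.0476, exact permutation test). With 2 DO2 libraries against 6, no p under 0.0714 is possible.

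The replicate number as a block changed no call for the members (for Aja-miR-71-5p limma gave an adjusted p of 0.0441 in DO2 against DO8 and of 0.0136 in DO2 against DO4) and gave 26 and 27 called entries against 28 and 28. Same-numbered libraries showed no clear shared deviation (correlations of -0.37 to 0.23, 2 of 9 over 0.1, and 3 of 9 highest with their own number). The numbers were not used as pairs in the main fit. With 3 libraries per group, these correlations cannot decide whether same-numbered libraries belong together. With clean reads, 65 of the 90 tested entries were called against DO8 and 63 against DO4, where the main fit called 28 (31.1%) in each. The count was 47 in both without DO2_1 and 18 against DO8 without DO8_1. With a library left out the entries to test were chosen anew, so these 2 counts are not comparable with 28 of 90. For DO4 against DO8 limma called 0 entries, 1 at an unadjusted p under 0.05, and up to 2 under an alternative. Depth limits the 21 nt form above all, with at most 7 reads in a DO2 library.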
